A study of Rattus norvegicus with 6 samples.

Results

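The genes of the translation initiation factors (eIFs) and elongation factors (eEFs) were followed in primary Schwann cells, the glia of peripheral nerves, stimulated with soluble Neuregulin1β1 (from here on called NRG1). The members were all genes whose symbol begins with Eif1 to Eif6, Eef1 or Eef2, which gave 60 of the 17327 genes in the count tables. The rule reads symbols alone, but the set was picked with earlier results of these data known. The cells came from the sciatic nerves of adult female Wistar rats and had been expanded with serum, forskolin, which raises cAMP, and a growth factor that the labels call glial growth factor and the study's methods call NRG1β1. By those methods, both groups had thus been grown in the ligand before starvation. Both groups were starved for 18 h in medium low in serum, with forskolin kept at 10 μM, so that the controls carried forskolin as well. The 3 NRG1 samples received 10 nM recombinant NRG1 for 6 h, and the 3 mock samples received the buffer with albumin alone. Mock and NRG1 samples of the same number came from the same independent cell preparation, and poly(A) RNA was sequenced, with no measurement of protein or of translation itself.

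Translation of most mRNAs begins when eIF2 brings the initiator tRNA to the small ribosomal subunit, eIF3 holds the parts together and the eIF4 factors load the subunit at the mRNA cap. The eEF1 factors then deliver tRNAs to the ribosome, eEF2 moves it along the mRNA, and eIF5A helps it over stretches of difficult sequence. Growth factors act on this machinery mainly by phosphorylation, through mTOR and the inhibitors of the cap-binding factor eIF4E, while eIF2 kinases slow initiation under stress.

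Counts on genes lay between 6821590 and 15475018 per library, and 3 counts, the least level taken as measurable, corresponded to between 0.19 and 0.44 CPM (counts scaled to library size). All 8 Schwann cell markers used were counted, among them Sox10 at 396 to 1258 CPM in the 6 libraries. Of these markers 3 fell with NRG1 (S100b, Pmp22 and Cdh19), against 5.51% of all genes tested. The list summed to 6351 to 16560 CPM in mock and to 4837 to 11960 CPM in NRG1 samples, lower in each pair. Its part in the members' values was not tested. The libraries of replicate 1 stood apart from the other 4. The fibroblast genes Thy1, Dcn and Lum had 0 counts in the 4 libraries of replicates 2 and 3, while in replicate 1 Thy1 was at 1268 CPM in mock and 1143 CPM in NRG1. The 8 fibroblast markers summed to 14660 to 61810 CPM in mock and to 14150 to 67400 CPM in NRG1 samples. The log2 ratios of the sums were 0.12, -0.71 and -0.03 in pairs 1, 2 and 3. None of the 4 that could be tested was called, and Col3a1 came nearest (log2 fold change -0.98, edgeR adjusted p = 0.012). It had 22402, 838 and 442 CPM in mock and 23218, 279 and 170 CPM in NRG1 samples 1, 2 and 3. Replicates 2 and 3 were not free of the list, with Col1a1 at 13413 to 21494 CPM and Fn1 at 434 to 862 CPM. The defining markers of endothelial cells (Pecam1, Cdh5), leukocytes (Ptprc) and neurons (Rbfox3) were at 0 in all libraries, but other genes of these lists were counted. Such a 0 need not mean that the RNA was absent. Col1a2, of the fibroblast list, was at 0.22 CPM or less in every library, while Col1a1 was at 13413 to 32087 CPM. Tek, of the endothelial list, was at 5.87 to 14.8 CPM and lower with NRG1 in each pair (edgeR adjusted p = 0.028), Tubb3, of the neuron list, at 19.8 to 55.5 CPM, and Cd68, of the macrophage list, at 2.00 to 3.68 CPM. Cd14 was at 7.75 and 5.33 CPM in replicate 1 and at 0.34 CPM or less in the others. The part of these cells in the members' values was not tested. The calls are therefore also given without replicate 1. In such bulk samples, fewer cells of a type and less RNA per cell cannot be told apart.

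Of the 60 members, 59 passed the filter on low counts. The exception was Eef1a2, the eEF1A form of neurons and muscle, with 3, 3 and 2 counts in mock and 3, 0 and 1 counts in NRG1 samples 1, 2 and 3. With NRG1, 10 of the 59 rose (16.9%) at an adjusted p of at most 0.01 in edgeR's quasi-likelihood test with the replicate number as a block. They were Eif5a, Eef1e1, Eif4e, Eif3b, Eif3i, Eif3d, Eif2b2, Eef1g, Eif6 and Eif3g, with log2 fold changes from 0.50 to 0.94, each higher in 3 of 3 pairs. Without replicate 1, 9 members were called higher, 7 of these 10 among them. Over all 9740 genes tested, 6.31% were called higher by the same rule. No member was called lower, where 5.51% of all genes were. At an unadjusted p under 0.05, 28 members were higher (47.5%, against 17% of all genes) and 4 lower (6.78%, against 18.7%). DESeq2 with the same block called 13 members higher and 0 lower, against 6.06% and 4.45% of all genes. No member reached the log2 fold change over 1 that the study required, which 1.56% of all genes passed upwards and 1.91% downwards. At the looser adjusted p of 0.05, 22 members were higher and 3 lower, against 11.5% and 11.7% of all genes.

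**Figure D1:**
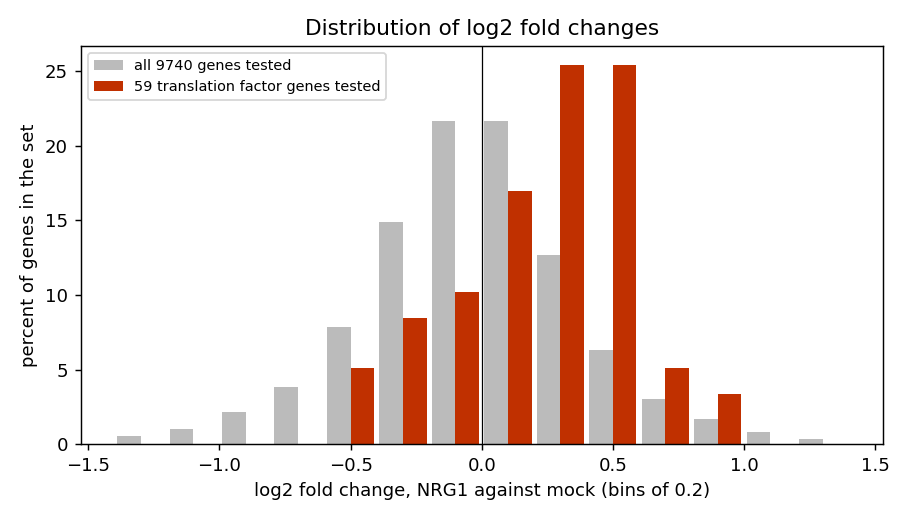
Percent of genes (vertical axis) in bins of 0.2 of the log2 fold change of NRG1 against mock (horizontal axis), in grey for all 9740 genes tested and in red for the 59 translation factor genes; genes beyond 1.4 in either direction are outside the drawn range. Between 0.2 and 0.6 lie 2 bins with 25.4% of the members each, while all genes peak at 21.6% and 21.7% in the bins on either side of 0.

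The members as a set lay above the rest of the transcriptome by a small amount. Their median log2 fold change was 0.29, with a range from -0.55 to 0.94, and 45 of 59 (76.3%) were positive. The median of all genes tested was -0.03, and 47.2% of them were positive. By pair, the median log2 ratio of the members was 0.23, 0.42 and 0.25 in replicates 1, 2 and 3, so that the shift was present in each pair and greatest in the second. A higher level in all 3 pairs was found for 35 members (59.3%), against 25.9% of all genes, and a lower level in all 3 pairs for 8 members (13.6%), against 30% of all genes. Groups that did not overlap, with every NRG1 sample above every mock sample, were found for 18 members (30.5%), against 10.2% of all genes. The reverse, every NRG1 sample below every mock sample, was found for 3 members (5.08%), against 9.94%. Summed over the members, the share of all gene counts was 1.12%, 1.23% and 1.22% in mock and 1.31%, 1.60% and 1.39% in NRG1 samples 1, 2 and 3. The share of alignments that htseq set aside as mapping to more than 1 place also rose within each pair, from 24.5% to 26.4%, from 26.1% to 28.9% and from 28.7% to 29.9%. Such reads are in no gene's count, and their part in the members' values was not tested.

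Eif5a had the largest difference. It encodes eIF5A, and eIF5A proteins are the only ones known to carry hypusine, a modified lysine. Its level was 328, 419.8 and 494 CPM in mock samples 1, 2 and 3 and 587, 1046 and 791 CPM in NRG1 samples 1, 2 and 3. Every NRG1 sample was above every mock sample. The mean rose from 414 ± 82.8 CPM to 808 ± 229.8 CPM (SD, n = 3). The log2 fold change was 0.94, with a standard error (SE) of 0.14 and an edgeR adjusted p of 0.00036. Its paralogue Eif5a2 had 64.0, 46.3 and 40.0 CPM in mock and 47.6, 39.9 and 32.5 CPM in NRG1 samples. It was lower in each of the 3 pairs, but the groups overlapped and the test was not passed (log2 fold change -0.32, SE 0.13, edgeR adjusted p = 0.084). The log2 ratio of Eif5a to Eif5a2 counts within a sample increased by 1.27, 1.53 and 0.98 in pairs 1, 2 and 3, on average by 1.26 ± 0.28 (SD, n = 3 pairs). An exact two-sided permutation test over 3 pairs gave p = 0.25, which is the smallest p that 3 pairs allow.

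**Figure D2:**
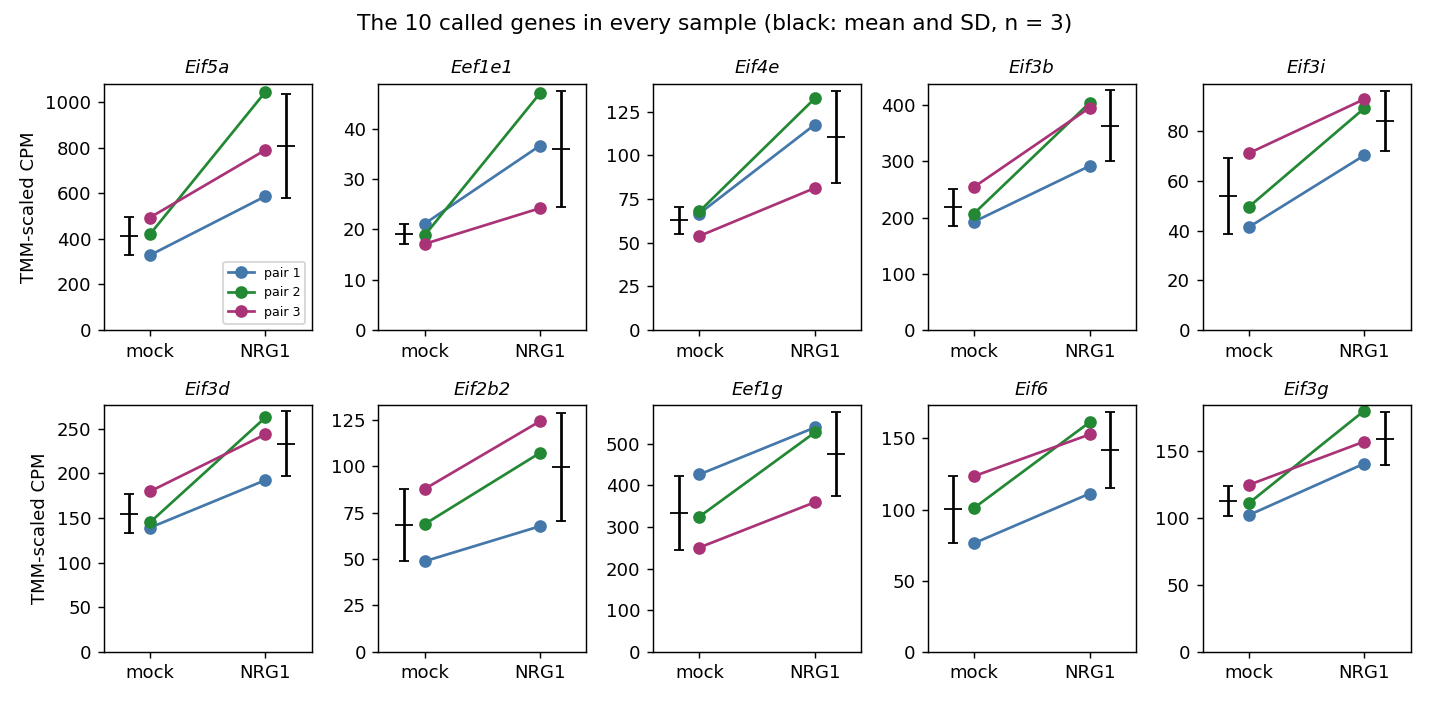
TMM-scaled CPM (vertical axis, starting at 0) of the 10 members called higher, in mock and NRG1 samples, with a line joining the samples of each pair and black marks for mean and SD (n = 3). Every line goes up; for Eif5a, Eef1e1, Eif4e, Eif3b, Eif3d and Eif3g all NRG1 samples lie above all mock samples, whereas for Eif3i, Eif2b2, Eef1g and Eif6 the groups overlap.

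Among the eIF4 factors, which bind and unwind the capped end of the mRNA, 1 of 10 genes was called, Eif4e (10%, against 6.31% of all genes). It encodes the cap-binding protein, and its level was 66.7, 67.9 and 53.8 CPM in mock and 118, 133 and 81.3 CPM in NRG1 samples 1, 2 and 3. The lowest NRG1 sample was thus above the highest mock sample, and the log2 fold change was 0.79 (SE 0.12, edgeR adjusted p = 0.00043). Eif4e2, which encodes a cap-binding protein that does not join the initiation complex and can repress translation, had 55.7, 47.6 and 55.4 CPM in mock and 68.4, 72.8 and 71.4 CPM in NRG1 samples (log2 fold change 0.42, SE 0.12, edgeR adjusted p = 0.023). Eif4e3, the remaining relative of the family, had 24.5, 21.0 and 22.9 CPM in mock and 20.9, 11.5 and 15.3 CPM in NRG1 samples. It had the most negative log2 fold change of all members, -0.55 (SE 0.16, edgeR adjusted p = 0.025), and it was lower in each pair. The groups did not overlap, but only just, since the second mock sample lay beside the first NRG1 sample.

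The RNA helicase eIF4A is encoded by Eif4a1 and Eif4a2. Eif4a1 had 401, 429.6 and 447 CPM in mock and 553, 787 and 548 CPM in NRG1 samples 1, 2 and 3, with no overlap of the groups. Its log2 fold change of 0.54 (SE 0.14) just missed the threshold, with an edgeR adjusted p of 0.0106, and passed it under RLE normalization (adjusted p = 0.0082) and in DESeq2 (adjusted p = 0.0020). It was not called when any of the 3 replicates was left out (edgeR adjusted p of 0.012, 0.047 and 0.017, with the log2 fold change at 0.38 without replicate 2) or with no replicate block (0.31). Eif4a2 had 529, 449 and 409.6 CPM in mock and 449.8, 498 and 352 CPM in NRG1 samples. Its groups overlapped, with a log2 fold change of -0.10 (SE 0.13, edgeR adjusted p = 0.60). Within samples, the log2 ratio of Eif4a1 to Eif4a2 counts increased by 0.70, 0.72 and 0.52 in the 3 pairs (mean 0.65 ± 0.11, SD, exact permutation p = 0.25, again the smallest possible). The ratio of Eif4e to Eif4e2 increased by 0.52, 0.36 and 0.23 (exact p = 0.25).

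**Figure D3:**
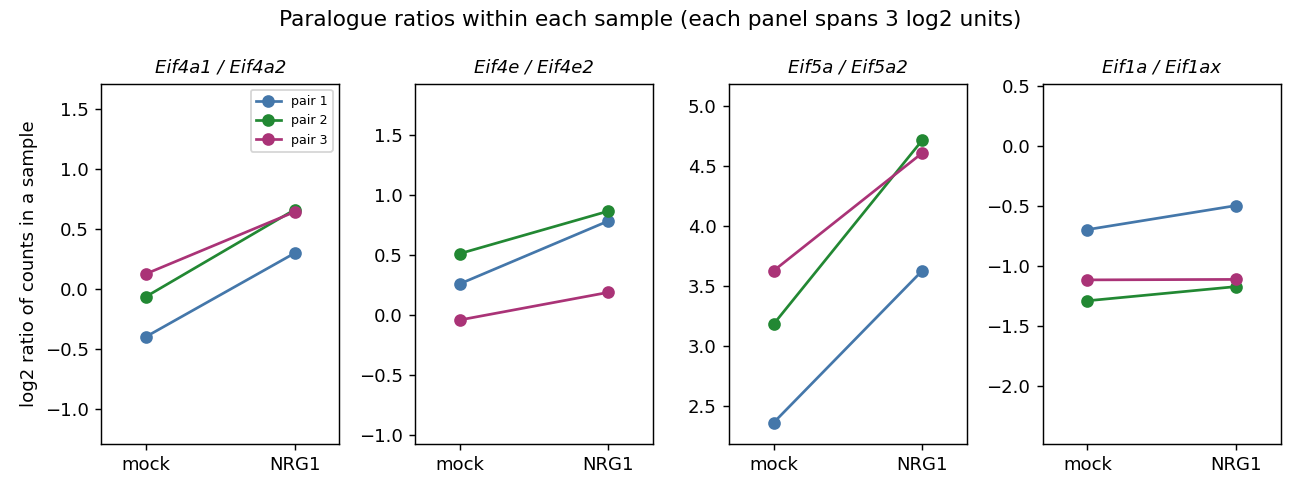
Log2 ratio of the counts of 2 paralogues within a sample (vertical axis, every panel spanning the same distance), in mock and NRG1 samples, with a line for each pair. Eif5a/Eif5a2 and Eif4a1/Eif4a2 go up in each pair by 0.52 or more, Eif4e/Eif4e2 by 0.23 to 0.52, while Eif1a/Eif1ax moved by 0.20 or less.

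The other eIF4 members did not pass the test. Eif4g3, which encodes a scaffold that joins eIF4E and eIF4A, had 255, 260.4 and 289 CPM in mock and 320.5, 313 and 437 CPM in NRG1 samples, without overlap (log2 fold change 0.40, SE 0.12, edgeR adjusted p = 0.031). Eif4h, a helper of the helicase, and Eif4a3, which belongs to the exon junction complex, had log2 fold changes of 0.32 and 0.23. Eif4b and Eif4g2 had -0.01 and 0.02, with SE values of 0.12 and 0.13. Eif4g1, the main scaffold gene, was not analysed here.

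eIF3, the largest initiation factor, held 4 of the 10 calls. Of its 13 genes 4 rose (30.8%, against 6.31% of all genes), 0 fell (5.51% of all genes), and the median log2 fold change was 0.34. Eif3b, which encodes a core subunit, had 193, 207 and 254 CPM in mock and 292, 404 and 395 CPM in NRG1 samples 1, 2 and 3. The groups were apart, with a log2 fold change of 0.73 (SE 0.13, edgeR adjusted p = 0.00091). Eif3i, whose protein forms a module with eIF3b and eIF3g, had 41.4, 49.6 and 71.2 CPM in mock and 70.4, 89.3 and 93.0 CPM in NRG1 samples. It was higher in each pair although the third mock sample exceeded the first NRG1 sample (log2 fold change 0.66, SE 0.13, edgeR adjusted p = 0.0024). Eif3g completes this module with 102, 111 and 124 CPM in mock and 140.2, 179.7 and 157 CPM in NRG1 samples (log2 fold change 0.50, SE 0.12, edgeR adjusted p = 0.0090). Eif3d, whose protein can itself bind the cap of some mRNAs, had 139, 145 and 179.8 CPM in mock and 193, 263 and 244 CPM in NRG1 samples (log2 fold change 0.59, SE 0.13, edgeR adjusted p = 0.0043).

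The remaining eIF3 genes were spread around and below these values. Eif3c came near the threshold with a log2 fold change of 0.47 (SE 0.12, edgeR adjusted p = 0.014) and groups that did not overlap, and Eif3l and Eif3k followed with 0.36 and 0.34. Eif3a, which encodes the large scaffold subunit, had 0.27, Eif3j 0.21 and Eif3m 0.16. Of the 13 genes, 3 had negative values, namely Eif3f (-0.05), Eif3e (-0.09) and Eif3h (-0.28), with SE values of 0.13, 0.18 and 0.32. Eif3h was counted with only 59, 64 and 77 reads in mock and 84, 25 and 96 reads in NRG1 samples, and its log2 ratio of -1.68 in pair 2 stood against 0.50 and 0.03 in pairs 1 and 3.

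eIF2 carries the initiator tRNA together with GTP, and eIF2B recharges it with GTP after each round. Of the 5 eIF2B genes, Eif2b2 rose (20%, against 6.31% of all genes). It had 48.8, 68.8 and 87.8 CPM in mock and 67.7, 107 and 124 CPM in NRG1 samples. The increase lay within pairs, between 0.47 and 0.64 on the log2 scale, while the groups overlapped (log2 fold change 0.54, SE 0.12, edgeR adjusted p = 0.0045). Eif2b1, Eif2b5 and Eif2b3 had log2 fold changes of 0.45, 0.43 and 0.33, with edgeR adjusted p-values of 0.020, 0.017 and 0.060. Eif2b4 had a negative one of -0.17 and was lower in each pair (edgeR adjusted p = 0.38). None of the 3 genes of the eIF2 trimer was called, namely Eif2s2 (0.38), Eif2s1 (0.33) and Eif2s3x (-0.01). These are too few for a lack of calls to set them apart from all genes (6.31% called higher and 5.51% lower). The log2 ratios of Eif2s1 were -0.10, 0.79 and 0.31 in pairs 1, 2 and 3, so that the value rested on the second and the third pair. Eif2a and Eif2d, alternative carriers of the initiator tRNA, had 0.15 each.

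The 4 kinases that phosphorylate eIF2 and thereby slow initiation were the role group with the lowest median, -0.32, and none was called. With 6.31% of all genes called higher and 5.51% lower, a lack of calls among 4 genes does not set them apart. Eif2ak2, also known as PKR and activated by double-stranded RNA, had 75.8, 52.8 and 47.5 CPM in mock and 48.8, 45.2 and 35.6 CPM in NRG1 samples 1, 2 and 3 (log2 fold change -0.43, SE 0.13, edgeR adjusted p = 0.028). Eif2ak3, also known as PERK, the kinase of the endoplasmic reticulum, had 58.3, 50.2 and 46.1 CPM in mock and 47.1, 33.3 and 35.5 CPM in NRG1 samples (log2 fold change -0.42, SE 0.13, edgeR adjusted p = 0.028). Both were lower in each pair, with groups that overlapped, and Eif2ak2 passed the threshold in the fit without replicate 2 (log2 fold change -0.52, edgeR adjusted p = 0.0091). It did not without replicate 1 (-0.32, edgeR adjusted p = 0.25), without replicate 3 (-0.41, edgeR adjusted p = 0.15) or in DESeq2 (adjusted p = 0.067). Eif2ak1, the kinase regulated by heme, had 67.2, 62.7 and 63.3 CPM in mock and 59.1, 51.8 and 56.2 CPM in NRG1 samples. Every NRG1 sample was below every mock sample, but with a log2 fold change of -0.21 (SE 0.12, edgeR adjusted p = 0.22). Eif2ak4, also known as GCN2 and activated by amino acid shortage, had 47.0, 50.8 and 41.6 CPM in mock and 51.7, 42.3 and 48.5 CPM in NRG1 samples, with no common direction (log2 fold change 0.04, SE 0.13).

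Among the start site and subunit joining factors, 1 of 8 genes rose, where 6.31% of all genes did. With 8 genes, 1 call does not set the group apart from all genes. Eif6, which encodes a factor that keeps the large subunit from joining too early and acts in its maturation, had 76.3, 101 and 123 CPM in mock and 111, 161 and 153 CPM in NRG1 samples. The groups overlapped while each pair increased (log2 fold change 0.51, SE 0.12, edgeR adjusted p = 0.0082). Eif1a and Eif1ax are near-identical copies, and reads that map to both are in neither count. The log2 fold changes of Eif1a and Eif1ax were 0.48 and 0.38 (SE 0.13 for each, edgeR adjusted p of 0.013 and 0.049). Eif1, whose protein guards the choice of the start codon, had 198, 241 and 259 CPM in mock and 163, 230.4 and 195 CPM in NRG1 samples, lower in each pair but not called (log2 fold change -0.26, SE 0.12, edgeR adjusted p = 0.15). Its partner in that choice, Eif5, had a log2 fold change of 0.02 (SE 0.13). Eif1ad, Eif5b and Eif1b had 0.29, 0.15 and 0.10.

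The 4 inhibitors of the cap complex were not called in either direction. Of all genes 6.31% were called higher and 5.51% lower, so 4 genes are too few for this to set them apart. Eif4ebp1, which encodes a protein that holds eIF4E until mTOR phosphorylates it, had 65.3, 43.5 and 42.6 CPM in mock and 87.2, 71.4 and 50.5 CPM in NRG1 samples (log2 fold change 0.45, SE 0.13, edgeR adjusted p = 0.021). Its relative Eif4ebp2 had 37.7, 58.4 and 51.4 CPM in mock and 46.7, 59.8 and 81.6 CPM in NRG1 samples (log2 fold change 0.34, SE 0.14, edgeR adjusted p = 0.087). Eif4ebp3 was counted at 8.55, 11.1 and 8.67 CPM in mock and between 7.98 and 8.07 CPM in the 3 NRG1 samples (log2 fold change -0.22, SE 0.20), so that every NRG1 sample was below every mock sample by a small margin. Eif4enif1, which encodes a protein that carries eIF4E into the nucleus, had 0.25.

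Of the 5 genes tested under an Eef1 symbol, 2 rose (40%, against 6.31% of all genes). Eef1e1 encodes a part of the complex of aminoacyl-tRNA synthetases. It had 21.1, 18.8 and 17.1 CPM in mock and 36.7, 47.1 and 24.2 CPM in NRG1 samples 1, 2 and 3. The groups were apart, though the third NRG1 sample lay far below the second (log2 fold change 0.86, SE 0.16, edgeR adjusted p = 0.0019). Eef1g, a subunit of the exchange factor that recharges eEF1A with GTP, had 426.5, 325 and 251 CPM in mock and 539.5, 528 and 359.7 CPM in NRG1 samples, higher in each pair but with overlapping groups (log2 fold change 0.52, SE 0.12, edgeR adjusted p = 0.0083). The other 2 exchange factor subunits, Eef1d and Eef1b2, had log2 fold changes of 0.51 and 0.48 and missed the threshold with edgeR adjusted p-values of 0.011 and 0.022.

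The elongation factors served by these subunits and enzymes were not called. Eef1a1, the tRNA carrier itself, had 871, 1196 and 883 CPM in mock and 1022, 1139 and 800.1 CPM in NRG1 samples. The groups covered the same range, and the log2 fold change was 0.01 (SE 0.13). The difference between Eef1a1 and the subunits of its exchange factor was not tested. Eef2 had 2383, 3006 and 2582 CPM in mock and 3076, 2964 and 3045 CPM in NRG1 samples (log2 fold change 0.20, SE 0.14, edgeR adjusted p = 0.34). Eef2k, the kinase that switches eEF2 off, had 35.0, 34.5 and 37.8 CPM in mock and 43.2, 38.5 and 47.1 CPM in NRG1 samples, without overlap of the groups but also without a call (log2 fold change 0.26, SE 0.13, edgeR adjusted p = 0.15). Eef2kmt, which encodes a methyltransferase of eEF2, was counted with 22 to 68 reads per library and had a log2 fold change of 0.48 with an SE of 0.26.

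**Figure D4:**
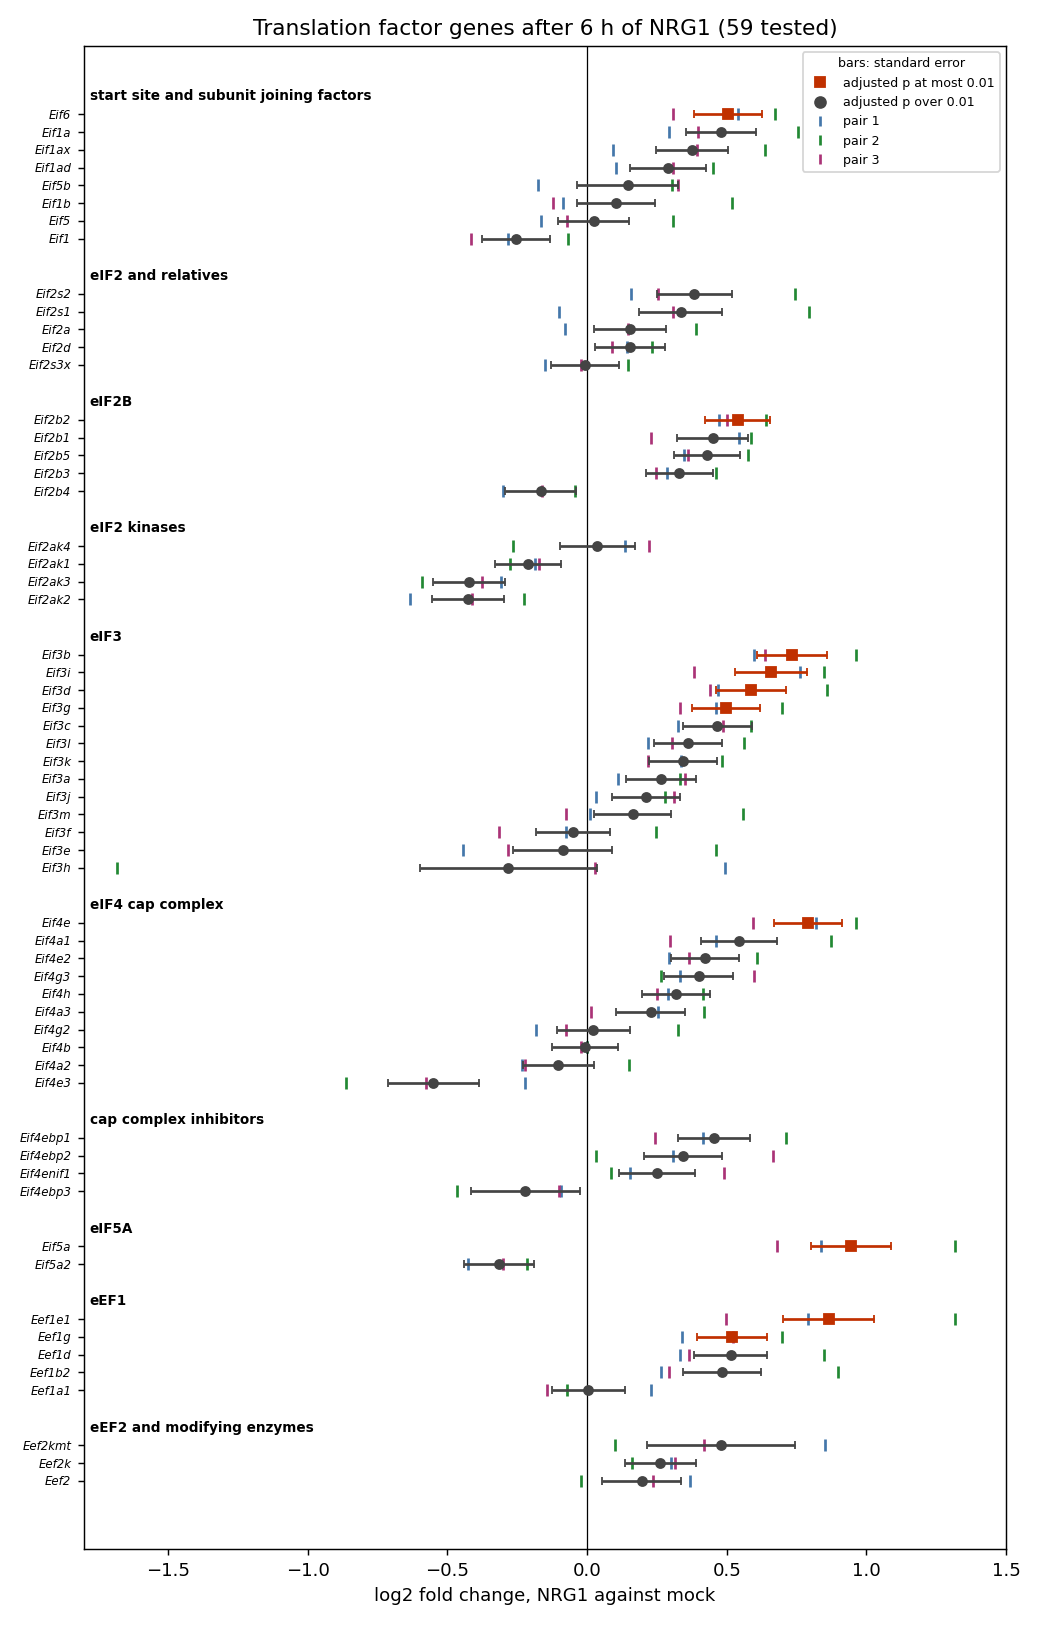
Log2 fold change of NRG1 against mock (horizontal axis) of the 59 members tested, grouped by role, with squares in red for the 10 called, circles for the others, bars for the standard error and ticks for the log2 ratio of each pair. Values extend from -0.55 for Eif4e3 to 0.94 for Eif5a, 3 of the 4 eIF2 kinase genes are left of 0, and the tick of pair 2 for Eif3h lies apart at -1.68.

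Promoter sequences are shown for members that were called, since these genes moved in the same direction. RefSeq promoters of the GRCr8 build, 250 bases before to 50 bases after the gene start, were matched for 54 of the 60 members, 1 of them by a synonym. The files analysed were made on the older rn5 build, so the sequences were matched by gene name only. The letters CACGTG (the E-box, which reads the same on both strands and is bound by MYC and related factors) were found in 10 of the 54 promoters (18.5%). They were present in 6.65% of all 27457 promoters, and in 9.67% of the 7479 promoters that belong to genes tested here. Among the 10 called members, Eif3b, Eif4e and Eif5a held them, and Eif4e held them at 2 places. The stretches before the gene start are given below, with the E-box in capitals and with up to 30 bases on either side.
Eif5a (chr10:55143392-55143457, minus strand, first E-box base at -206): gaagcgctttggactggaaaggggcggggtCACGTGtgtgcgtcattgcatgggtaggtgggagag
Eif4e (chr2:229740503-229740551, plus strand, -237): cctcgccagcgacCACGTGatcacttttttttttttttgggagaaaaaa
Eif4e (chr2:229740643-229740708, plus strand, -80): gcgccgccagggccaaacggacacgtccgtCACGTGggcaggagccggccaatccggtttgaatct
Eif3b (chr12:19334790-19334855, minus strand, -57): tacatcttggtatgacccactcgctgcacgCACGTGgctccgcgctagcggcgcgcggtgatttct

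The E-box was likewise present in promoters of members that were not called, namely Eif5a2, Eef2, Eef2k, Eif3a, Eif3f, Eif4h and Eif1b. The letters CCGGAAG on either strand, the core bound by ETS factors, were found in 19 of 54 member promoters (35.2%), against 9.22% of all promoters and 19.3% of the promoters of genes tested. They were present in 5 of the 10 called members, and in none of the 3 that held the E-box. Among members not called, Eif1b and Eif5a2 held both. Eif3i held 3 matches and Eif3g held 2, which are shown in capitals with 20 bases on either side as far as the gene start.
Eif3i (chr5:147226911-147226990, minus strand, matches at -60, -28 and -8): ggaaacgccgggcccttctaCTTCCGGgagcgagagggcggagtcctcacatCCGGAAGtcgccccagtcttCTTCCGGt
Eif3g (chr8:27709958-27710026, minus strand, matches at -60 and -38): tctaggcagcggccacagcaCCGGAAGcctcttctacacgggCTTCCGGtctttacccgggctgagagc
Single matches were present in Eif2b2 at -17, Eif6 at -72 and Eif3d at -129. The letters TGATGNAA, part of an element bound by ATF4, were found in 2 member promoters (3.7%), of which Eif3g was called, against 3.82% of all promoters and 1.68% of the promoters of genes tested. The E-box and the CCGGAAG letters cannot overlap, while TGATGNAA can share its end letters with an E-box. A match describes the letters only, and no binding was measured.

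Genes of translation outside the naming rule were taken from a list of 52 genes, of which 45 were in the tables and 43 were tested. Of these 7 rose (16.3%, against 6.31% of all genes) and 0 fell, with 16 higher and 2 lower at an unadjusted p under 0.05 in edgeR (17% and 18.7% of all genes), and 7 and 0 calls in DESeq2 (6.06% and 4.45% of all genes). Their median log2 fold change was 0.12. Several of the 7 act on the factors described above. Dohh, the enzyme for the last step of hypusine synthesis on eIF5A, had 31.0, 44.7 and 59.5 CPM in mock and 52.0, 98.6 and 86.7 CPM in NRG1 samples. It was higher in each pair (log2 fold change 0.80, SE 0.14, edgeR adjusted p = 0.00088), while Dhps, the enzyme of the first step, had a log2 fold change of 0.45 (SE 0.15) and was not called, with an edgeR adjusted p of 0.036.

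The diphthamide enzymes modify a histidine of eEF2, and 2 of the 5 genes tested rose (40%, against 6.31% of all genes). Dph1 had 19.1, 13.6 and 15.0 CPM in mock and 33.1, 31.0 and 34.6 CPM in NRG1 samples, and was the only gene of the list past a log2 fold change of 1 (1.06, SE 0.15, edgeR adjusted p = 0.00021). Dph3 had 32.5, 43.9 and 52.3 CPM in mock and 48.4, 91.4 and 71.4 CPM in NRG1 samples (log2 fold change 0.69, SE 0.14, edgeR adjusted p = 0.0029). Dph5, Dph2 and Dph6 were not called, with 0.55, -0.05 and -0.07.

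Of the genes for release, recycling and mRNA binding, 2 of 9 rose (22.2%, against 6.31% of all genes). Pabpc4, a poly(A)-binding protein, had 75.8, 62.9 and 53.7 CPM in mock and 115, 122 and 96.4 CPM in NRG1 samples (log2 fold change 0.80, SE 0.12, edgeR adjusted p = 0.00038). Abce1, which splits ribosomes after termination, had 182, 183 and 169 CPM in mock and 242, 329.5 and 269.9 CPM in NRG1 samples (log2 fold change 0.65, SE 0.13, edgeR adjusted p = 0.0022). For both genes every NRG1 sample was above every mock sample. Bzw2, whose protein resembles eIF5 and competes with it, had 68.5, 101 and 108 CPM in mock and 99.9, 181 and 177 CPM in NRG1 samples (log2 fold change 0.70, SE 0.12, edgeR adjusted p = 0.00088). Gcn1l1, the partner that activates the kinase Eif2ak4, was the seventh gene called, with a log2 fold change of 0.60 (SE 0.13, edgeR adjusted p = 0.0037).

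Beside these genes stand the other parts of the machinery, given for scale and with no test of a difference. Of 74 cytosolic ribosomal protein genes tested, 9 rose (12.2%) and 0 fell, with a median log2 fold change of 0.40 and medians of 0.26, 0.67 and 0.24 in pairs 1, 2 and 3. Of 32 aminoacyl-tRNA synthetase genes tested, 7 rose (21.9%) and 0 fell, with a median of 0.28 and medians of 0.26, 0.35 and 0.37 in the pairs. The synthetase genes were taken by their symbols, without separating cytosolic from mitochondrial enzymes. In the 3 sets no gene was called lower by edgeR. Of all genes, 6.31% were called higher and 5.51% lower.

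The calls rested on the pairing and partly on single replicates. In edgeR with no replicate block, which treats the 6 samples as unpaired, 0 of all 9740 genes were called in either direction, 0 members included, and the smallest adjusted p was 0.139 over all genes and 0.21 over the members. In that fit, 14 members (23.7%) had an unadjusted p under 0.05, against 13.7% of all genes. Without replicate 1, whose libraries alone held Thy1, Dcn and Lum, 9 members were called higher (5.94% of all genes) and 0 lower, and 7 of the 10 genes kept their call. Without replicate 2 or without replicate 3, 6 members were called higher in each case (5.07% and 4.02% of all genes). Eif3g and Eif6 lost their call in all 3 of these fits, Eif2b2 and Eef1g in 2 of them, and Eif3d without replicate 2. Eif5a, Eef1e1, Eif4e, Eif3b and Eif3i kept their call whichever replicate was left out.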

How the data were processed

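RNA-seq of poly(A) RNA was done on 3 mock and 3 NRG1 samples. According to the submitters' processing notes and the study's methods, alignment was to rn5 by TopHat2 2.0.10 and counting by HTSeq over RefSeq genes. The authors deposited these raw counts in 1 table per sample. Strand setting and RefSeq release are not given in the sources used here. HTSeq's summary lines name no gene and were kept apart, which left 47.0% to 49.9% of the alignments on genes.

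Groups and replicate numbers were taken from the labels. A minimum count of 10 in filterByExpr kept 9740 genes and removed 7587. The kept genes were normalized with TMM and tested with edgeR 4.0.16 in R 4.3.3, by a quasi-likelihood model with replicate number and condition. P-values were adjusted over all genes by the Benjamini-Hochberg method, and a gene was called at an adjusted p of at most 0.01. The deposited counts were also tested with DESeq2 1.42.0. Levels are CPM on TMM-scaled library sizes and are compared within a gene only. Log2 ratios of pairs use a prior count of 2, and paralogue ratios add 0.5 counts. A standard error (SE) is the size of the log2 fold change over the square root of F. Floors of 3 counts cover counting error only.

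Samples with the same number come from the same cell preparation. The deviations from the group means correlated across genes with r of 0.91, 0.67 and 0.81 for the same number, and with -0.80 to 0.51 for different numbers. No replicates agreed within sampling noise (chi-square per degree of freedom of 18.9 or more). Scripts were tested on simulated data.

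The members and lists were chosen with earlier results of these data known, and 1 marker gene of the Schwann cell list is not reported here. Named with full values are the members called (up to 12, by size of change, with the same sign in 3 pairs), the regulators (eIF2 kinases, eIF4E inhibitors, Eef2k), the paralogue pairs and the 6 largest calls of the pathway list. Beyond that rule, Gcn1l1 and members near the threshold were named after their values were seen. Alternatives were no replicate block, DESeq2, RLE normalization, no filter, at least 10 counts in every sample, leaving out each replicate, an adjusted p of 0.05 and the fold threshold of the study.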

Additional observations from a re-analysis of the deposited data

How the results depend on the processing

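The median log2 fold change of the members stayed between 0.26 and 0.34 under all alternatives. The count of 10 members called higher was 13 with DESeq2 (6.06% of all genes) and 12 with RLE normalization (6.83%). It was 15 with no filter (6.46%) and 11 with at least 10 counts in every sample (6.81%). All 10 genes kept their call in these 4 fits. With no replicate block, so without the pairing by cell preparation, 0 members were called higher. The pathway list outside the naming rule and all genes gave 0 as well. At an adjusted p of 0.05, 22 members were higher and 3 lower, and in the pathway list 14 were higher and 1 lower. The shares of all genes were 11.5% higher and 11.7% lower. With the fold threshold of the study, 0 members were called higher and 1 gene of the pathway list (Dph1), against 1.56% of all genes. With no filter, 1 member was called lower (Eif4e3), against 6.53% of all genes, and 11 pathway genes higher, against 6.46%. Leaving out each replicate gave 6 to 9 members higher (6 without replicate 2 and 6 without replicate 3) and 6 to 8 pathway genes higher. It gave 0 to 1 members lower (Eif2ak2 without replicate 2). Of all genes, these fits called 4.02% to 5.94% higher and 2.49% to 6.05% lower. Values near 0 changed sign, namely Eef1a1 with no filter (-0.008) and between -0.10 and 0.10 when a replicate was left out, and Eif2ak4 without replicate 1 (-0.0098) and without replicate 3 (-0.0408), within a range up to 0.19. The causes were not tested. Members with few reads, such as Eef2kmt, Eif3h and Eif4ebp3, have standard errors of 0.20 to 0.32 so that changes near the lower end of those called could not be shown for them.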

Other observations

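Genes of mitochondrial and selenocysteine translation were part of the pathway list and gave 0 calls among 9 tested, with a median log2 fold change of -0.02. Of all genes 6.31% were called higher and 5.51% lower, so 9 genes are too few for 0 calls to set them apart. Within the list, Tufm, the mitochondrial counterpart of eEF1A, had a log2 fold change of 0.45 (SE 0.12, edgeR adjusted p = 0.014) and was higher in each of 3 pairs. Gfm1 and Tsfm, further mitochondrial elongation factors, had 0.37 and 0.40, while Mtif2, Mtif3 and Gfm2 had -0.05, -0.14 and -0.13. Eefsec, the elongation factor for selenocysteine, had 0.59 (SE 0.17, edgeR adjusted p = 0.022) and log2 ratios of 0.67, 0.55 and 0.54 in the 3 pairs.

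Genes of the response that follows phosphorylation of eIF2 were not called either. Ppp1r15a, which directs a phosphatase to eIF2, had a log2 fold change of -0.40 (SE 0.12, edgeR adjusted p = 0.024) and Ddit3 of -0.39 (SE 0.14, edgeR adjusted p = 0.056), and both were lower in each of 3 pairs. Atf4, whose protein is made when eIF2 is phosphorylated, had 0.07 (SE 0.13), and Ppp1r15b had -0.11 (SE 0.11). Among the regulators upstream, Mtor had 0.22 and Rps6kb1 0.12, with edgeR adjusted p-values of 0.22 and 0.53. Rps6 was below the filter, with 3, 3 and 1 counts in mock and 4, 64 and 3 counts in NRG1 samples 1, 2 and 3. The second NRG1 sample thus stood apart from all others. Gspt1, also of the pathway list, had 0 counts in all libraries. Reads that map to more than 1 place are in no gene's count, so low counts of Rps6 and Gspt1 need not mean low RNA. The part of such reads was not tested.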
